A study of Daphnia magna with 3 samples.

Results

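Vitellogenin expression was examined in 3 RNA-seq libraries of wild-type females of Daphnia magna, a small freshwater crustacean. Records were chosen by their description in the deposited gene table, which had to contain the word vitellogenin and not the word receptor. The rule took 19 of 47109 gene records, and it used no measured value. Of these, 6 records are called the main records, a set chosen with earlier results of these data known, and they are not the 6 highest: EVm027479 Split02, described below, had more counts and TPM than the lowest of them. The word receptor kept out 5 vitellogenin receptor records.

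Females were fed at the nutrient-rich level of the study, in which these libraries stand for the wild type. Each sample held 5 females of the NIES strain, genotype wild type, aged 12 days and releasing clutch number 2, and eggs had been flushed out of the brood chamber before whole bodies were frozen. The study states that these libraries were prepared elsewhere by the same methods, and its starved and mutant animals were not analysed here. Hence no conditions were compared. All values below describe how the records stood relative to each other and how far the 3 libraries lay apart.

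Vitellogenins are large secreted lipid transfer proteins that serve as the precursors of yolk. In egg-laying animals they are made outside the oocyte, carry lipids and metal ions, and enter the growing oocyte through a receptor of the low-density lipoprotein receptor family. In Daphnia, the vitellogenin chain has been described as fused with a superoxide dismutase-like part, superoxide dismutase being the enzyme that removes superoxide radicals. Juvenoids and ecdysteroids, the hormones of arthropod moulting and reproduction, act on vitellogenin genes in this group.

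The descriptions divided along this feature. Superoxide dismutase was named in 13 of the 19 descriptions, whereas 6 read vitellogenin 1, vitellogenin 2 or vitellogenin-like. A gene ontology term for superoxide dismutase activity was attached to 9 records, the 6 main records among them, and 22 records of the whole table had it. Lipid transporter activity was attached to 18 of the 19 records and to 36 records of the whole table. The vitellogenin records lay on 14 scaffolds or contigs, and 7 of them were on contigs, the short unplaced pieces of the assembly. Several spanned less than 1000 bp and 3 were parts of split gene models, so that the records were not 19 separate genes. Reads from near-identical copies could have been divided between records in mapping, and levels of single records are uncertain to that extent. The sequences of the records were not analysed here.

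Vitellogenin mRNA was among the most abundant in the body. The gene records held 8843488, 8679171 and 9092389 counts in replicates 1, 2 and 3. The 19 records together took 6.39% of counts in replicate 1 (Wilson 95% interval 6.38% to 6.41%), 7.94% in replicate 2 (7.93% to 7.96%) and 4.44% in replicate 3 (4.43% to 4.45%). These intervals cover counting error only, and the mean was 6.26% ± 1.76 (SD, n = 3). The share of replicate 2 exceeded that of replicate 3 by far more than counting error. In whole-body RNA, fewer cells of a type and less RNA per cell cannot be told apart. Almost all of it came from the 6 main records, at 6.04%, 7.57% and 4.19% of counts, while the other 13 records held 0.348%, 0.370% and 0.247%. By CPM (counts over library size, scaled by the trimmed mean of M-values, TMM), 5 vitellogenin records were among the 20 highest of the table. By TPM, which also takes length into account, 4 were.

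The record of highest level was Dapma7bEVm020225co06870NoSplit, here EVm020225, on contig06870 from 157 to 1456 (plus strand), described as vitellogenin fused with superoxide dismutase. It had 165668, 199214 and 139498 counts in replicates 1, 2 and 3, and 19810, 23685 and 15303 TPM. It ranked 1 of all records both by CPM and by TPM. The next by TPM, Dapma7bEVm030424co22568NoSplit (EVm030424, contig22568 from 1002 to 1635, plus strand), had 18755, 21810 and 10591 TPM from 77659, 90828 and 47803 counts. On the same contig and strand, 316 bp before it, lay Dapma7bEVm021263co22568NoSplit (EVm021263, 88 to 685), with 10064, 11525 and 5249 TPM. All 3 were lowest in replicate 3 and highest in replicate 2.

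**Figure D1:**
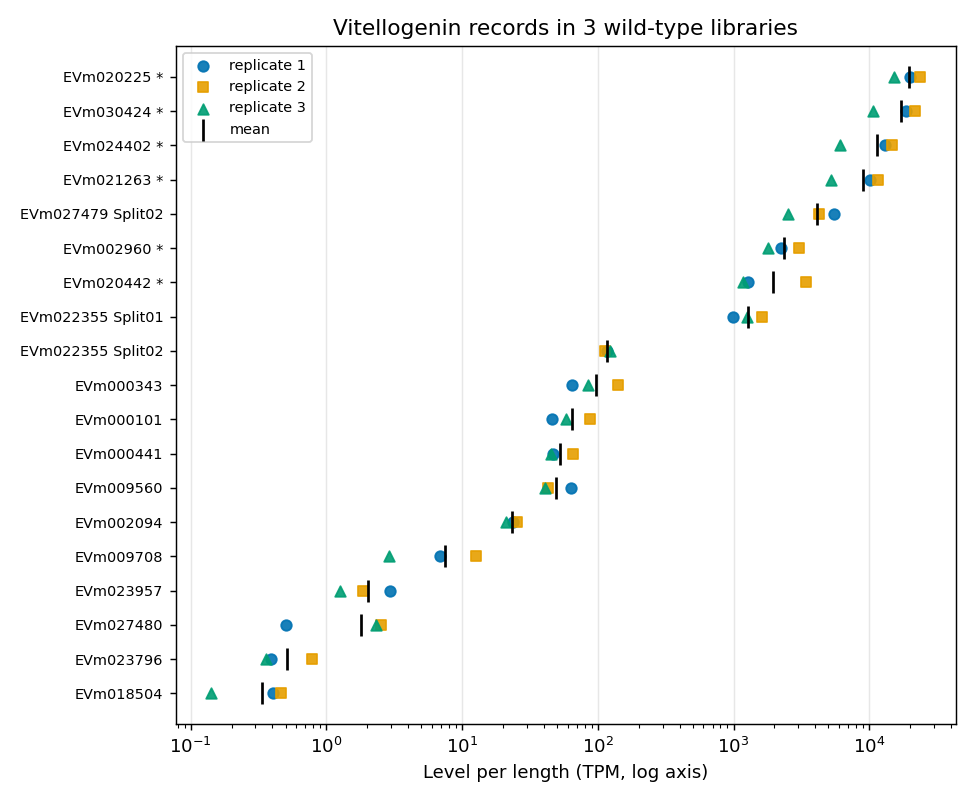
Level of the 19 vitellogenin records (rows, ordered by mean) in TPM on a log axis, with a symbol for each library and a bar for the mean; asterisks mark the 6 main records. Levels span from 19600 TPM for EVm020225 to under 1 TPM, and replicate 3 (triangles) is the lowest symbol in all 6 main records.

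The record that the study calls vtg1, Dapma7bEVm024402sc03326NoSplit (EVm024402, scaffold03326 from 64385 to 65978, plus strand), had 136067, 155377 and 68855 counts. Its level was 13051, 14818 and 6059 TPM, rank 5 of the table. Replicate 3 was the lowest library and replicates 1 and 2 lay close together, and the highest CPM was 2.58 times the lowest. Dapma7bEVm002960sc03326NoSplit (EVm002960, the same scaffold from 18671 to 26681, minus strand) was a long record with 110764, 150144 and 96931 counts. Its level per length was lower, at 2247, 3029 and 1804 TPM, which ranked 45 although its CPM ranked 5. The smallest of the main records by counts was Dapma7bEVm020442sc03326NoSplit (EVm020442, scaffold03326 from 58974 to 59854, minus strand). It had 6852, 18605 and 6936 counts and 1271, 3432 and 1180 TPM, and was the only vitellogenin record whose replicate 2 lay at least 2-fold above both other libraries by CPM. Of all tested records 1.42% did so.

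The records of scaffold03326 did not all stand close together. A gap of 32292 bp, with other records in it, lay between EVm002960 and EVm020442. EVm020442 and EVm024402 lay on opposite strands and pointed away from each other, with 4530 bp between them. In Daphnia magna a pair of vitellogenin genes in such a neck-to-neck arrangement is known. The levels of the 3 records were not in a fixed ratio. EVm024402 had 10.3, 4.32 and 5.13 times the TPM of EVm020442, a 2.38-fold range, and 5.81, 4.89 and 3.36 times that of EVm002960. By contrast the ratio of EVm030424 to EVm021263 on contig22568 was 1.86, 1.89 and 2.02, a 1.08-fold range. The ratio of EVm024402 to EVm030424 was 0.696, 0.679 and 0.572 although these lay on different assembly pieces.

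Some neighbours without a description carried large counts. Dapma7bEVm630089sc03326NoSplit (EVm630089), which overlaps EVm020442 on the same strand, had 12793, 33685 and 10384 counts, and its TPM was 0.993, 0.963 and 0.796 times that of EVm020442. The other overlapping record, Dapma7bEVm630088sc03326NoSplit (EVm630088), had 5746, 18661 and 7246 counts, again highest in replicate 2. Reads shared by overlapping records cannot be assigned between them from these counts. Dapma7bEVm638540sc03326NoSplit (EVm638540) began 3302 bp past the end of EVm024402 on the same strand and ranked 16 of the table, at 5256, 6387 and 6115 TPM. Unlike EVm024402 it was not lowest in replicate 3. On contig22568, Dapma7bEVm646215co22568NoSplit (EVm646215), which overlaps EVm021263, had 15826, 18451 and 9392 counts.

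**Figure D2:**
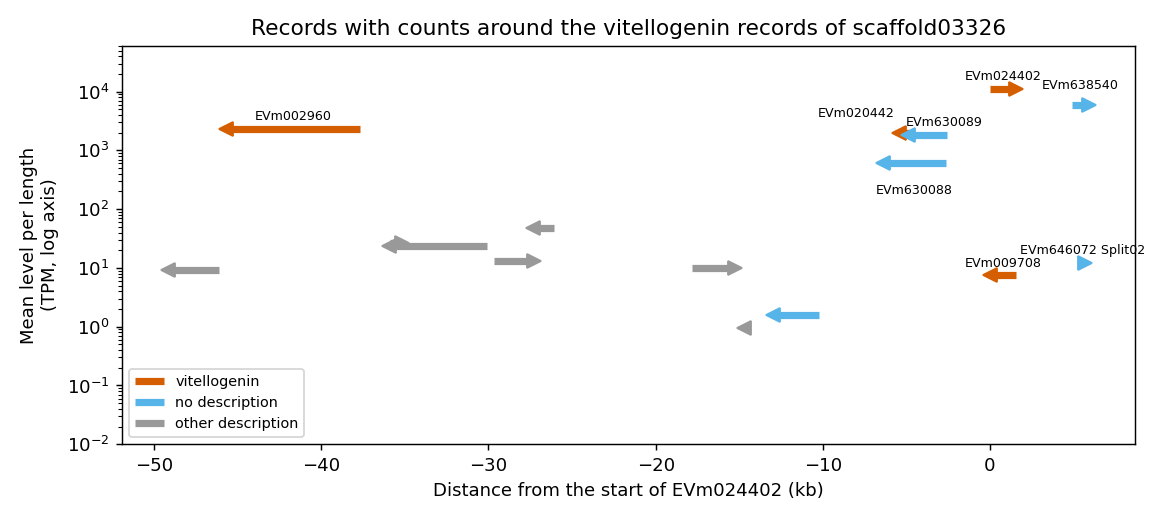
Mean level per length (TPM, log axis, n = 3) of the records with counts around the vitellogenin records of scaffold03326, against the distance in kb from the start of EVm024402; bars give the extent of a record, arrowheads its strand, colours its kind of description. EVm020442 and EVm024402 point away from each other, and the records between EVm002960 and EVm020442 that overlap neither lie far below both.

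The antisense record of vtg1 was nearly silent. Dapma7bEVm009708sc03326NoSplit (EVm009708), from 64386 to 65978 on the minus strand, covers nearly the same bases as EVm024402 and is also described as vitellogenin fused with superoxide dismutase. It had 72, 132 and 33 counts, which was 0.053%, 0.085% and 0.048% of the counts of EVm024402. The strand setting of the counting is not given in the sources used here, so that reads of the 2 strands could not be told apart for certain. Its CPM range of 4.57-fold was wide, on few counts.

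Among the other records, Dapma7bEVm027479co60401Split02 (EVm027479 Split02, contig60401 from 1 to 619, minus strand), described as vitellogenin 1, had the highest level. It had 5500, 4284 and 2501 TPM, with replicate 1 the highest library and replicate 3 the lowest. Dapma7bEVm022355co58612Split01 (EVm022355 Split01, contig58612 from 121 to 349) followed at 997, 1615 and 1250 TPM, with replicate 1 the lowest. The other part of this split model, Dapma7bEVm022355co08193Split02 (EVm022355 Split02, contig08193 from 60 to 186), had 117, 112 and 122 TPM. Parts of 1 model thus differed by 8.51, 14.4 and 10.2 times in level, and only the lower part was level over the libraries. Split02 had 110, 106 and 125 counts over 127 bp, and Split01 had 1688, 2750 and 2308 counts over 229 bp. Levels per length are uncertain in records this short. With the fewer counts of Split02, a difference between libraries was also harder to detect.

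The long records with whole-gene extent, EVm002960 apart, were expressed far lower. Dapma7bEVm000343sc01806NoSplit (EVm000343, scaffold01806 from 112406 to 120315, plus strand) had 64.7, 140.9 and 85.0 TPM. Dapma7bEVm000101sc01872NoSplit (EVm000101, scaffold01872 from 51640 to 62644, minus strand) had 46.3, 88.2 and 58.2 TPM. Both were lowest in replicate 1 and highest in replicate 2, a different order from the main records, of which none was lowest in replicate 1. Dapma7bEVm000441sc00930NoSplit (EVm000441, scaffold00930 from 1261583 to 1268772, plus strand) had 46.9, 65.8 and 45.0 TPM. Dapma7bEVm009560sc00084NoSplit (EVm009560, scaffold00084 from 460464 to 467698, plus strand), described as vitellogenin 2, had 63.3, 43.1 and 40.6 TPM, with replicate 1 the highest. The steadiest of them was Dapma7bEVm002094sc02167NoSplit (EVm002094, scaffold02167 from 117363 to 123341, minus strand), at 23.7, 25.2 and 20.9 TPM, a 1.27-fold range by CPM.

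The remaining records were at the edge of detection. Dapma7bEVm023957sc02708NoSplit (EVm023957, scaffold02708 from 18261 to 22074) had 43, 27 and 20 counts. On scaffold02385 lay 2 records that overlap on opposite strands. Dapma7bEVm018504sc02385NoSplit (EVm018504) had 13, 15 and 5 counts, and Dapma7bEVm023796sc02385NoSplit (EVm023796) had 7, 14 and 7 counts. Dapma7bEVm027480co07310NoSplit (EVm027480) had 1, 5 and 5 counts on contig07310. All 19 records nevertheless had at least 1 count in each library. By a different measure, 18338 of all 47109 records had no count in any library. The share of all records with a count in each library is not given here, so no conclusion is drawn from this detection.

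The order of the records by mean level per length was kept in part by the single libraries. Of 16 neighbouring pairs in that order, 11 kept it in all 3 libraries, and 11 had a mean log2 TPM difference larger than its SD. The order was set by the mean of these same 3 libraries, which favours agreement, so these counts are a description. No pair could pass a test, because an exact permutation test over sign changes of 3 libraries (two-sided) gives no p below 0.25, or 0.364 after Benjamini-Hochberg adjustment over the 16 pairs. EVm020225 and EVm030424 differed by 0.24 ± 0.25 log2 units (SD, n = 3). EVm030424 exceeded EVm024402 by 0.63 ± 0.15, and EVm024402 exceeded EVm021263 by 0.31 ± 0.09. Order was not kept between EVm002960 and EVm020442 (0.42 ± 0.53), EVm020442 and EVm022355 Split01 (0.45 ± 0.59), EVm022355 Split02 and EVm000343 (0.35 ± 0.61), EVm000101 and EVm000441 (0.26 ± 0.24), or EVm000441 and EVm009560 (0.11 ± 0.52).

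Next, the variation between libraries was compared with counting noise. Every record whose counts averaged 10 or more was given a chi-square test of homogeneity against the TMM library sizes, and p-values were adjusted by the Benjamini-Hochberg method over 15516 records. It was passed at an adjusted p of 0.05 by 15 of 17 tested vitellogenin records, against 54.5% of all tested records. High counts make this test sensitive. Among records of at least 100 CPM it was passed by 13 of 13 vitellogenin records and by 92.2% of all. The vitellogenin records were thus close to the other abundant records by this count. EVm022355 Split02 did not pass (adjusted p = 0.961 by the chi-square test), nor did EVm018504 (adjusted p = 0.0645 by the chi-square test). As p-values here measure only the spread between these samples, which may be technical, they bear on no condition.

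The size of the spread was given by the biological coefficient of variation (BCV) of edgeR. Its median was 0.301 for 18 vitellogenin records and 0.263 for all fitted records. At 100 CPM and above, the medians were 0.273 for 13 vitellogenin records and 0.205 for all. The BCV lay above the trend for records of like abundance in 13 of 18 vitellogenin records and in 22.3% of all fitted records. Most variable of the main records was EVm020442 (0.41), and least EVm020225 (0.24). The highest CPM of a record of at least 100 CPM was 1.91 times its lowest in the median vitellogenin record and 1.34 times in the median record of the table.

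These differences ran mostly in 1 direction. Replicate 3 was the lowest library in 13 of 17 tested vitellogenin records, against 32.8% of all tested records, and replicate 2 the highest in 13 of 17, against 28.9%. Both held in 10 of 17 records, against 11.4% of all, and in all 6 main records. The unanimity depends on which records are called main, since EVm027479 Split02, with more counts than EVm020442, was highest in replicate 1. Replicate 1 was the lowest in 3 of 17, against 37.1% of all, and the highest in 4, against 39.2%. Replicate 2 was the lowest in 1 of 17, against 30.0%, and replicate 3 the highest in 0, against 31.9%. At 100 CPM and above the picture was alike. There, replicate 3 was lowest in 10 of 13 vitellogenin records and 37.6% of all, replicate 2 highest in 11 and 26.9%, and both held in 8 and 10.2%. Records that share a locus or a model are not independent, so that these counts are a description. Each library was also set against the mean of the other libraries on the log2(CPM + 0.5) scale. The median deviation of the 17 vitellogenin records was 0.09 in replicate 1, 0.63 in replicate 2 and -0.61 in replicate 3, whereas over all tested records it was 0.02, 0.01 and 0.01. In the 6 main records it was 0.21, 0.69 and -0.95. Replicate 3 lay at least 2-fold below both other libraries in 4 vitellogenin records, EVm024402, EVm021263, EVm009708 and EVm018504, against 2.26% of all tested records.

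**Figure D3:**
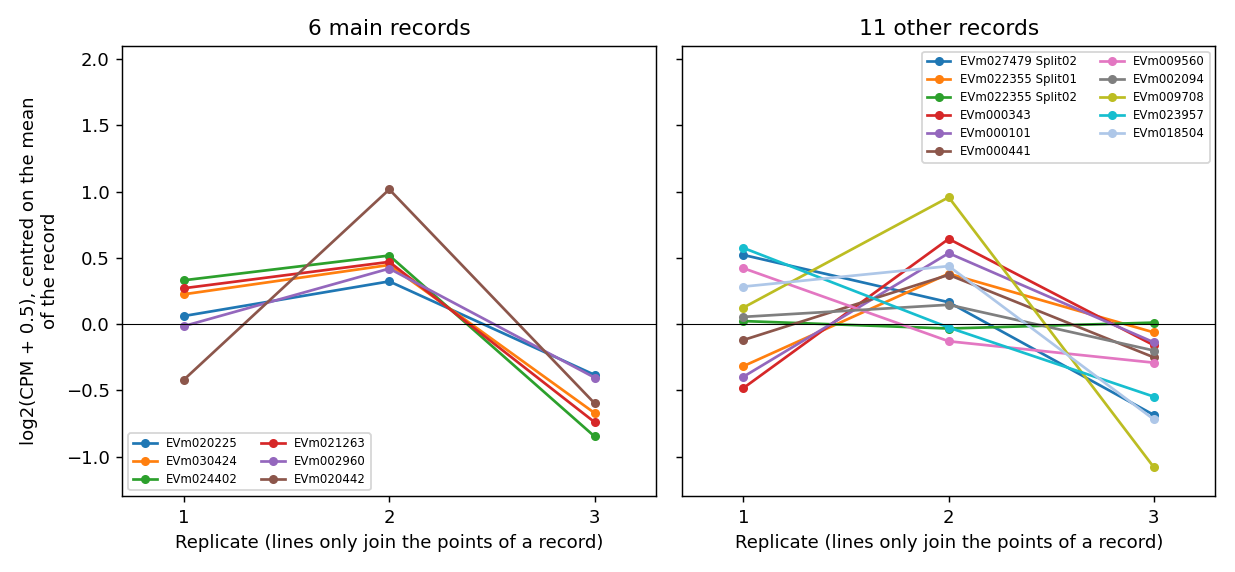
Log2(CPM + 0.5) of each tested vitellogenin record in replicates 1, 2 and 3, centred on the mean of the record, for the 6 main and the 11 other records; the lines only join the points of a record. All 6 main records are highest in replicate 2 and lowest in replicate 3, while the other records take several orders.

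Other scalings kept this direction in most records. Replicate 3 was again lowest in 13 of 17 records with DESeq2 size factors (32.8% of all tested records) and with TPM (26.8%). It was lowest in 12 with total counts (22.5%) and in 11 with the deposited RPKM (20.6%). Replicate 2 was highest in 13 of 17 under each. Both held in 9 of 17 with total counts, against 8.42% of all, and in 8 with RPKM, against 7.89%. By RPKM, replicate 3 was lowest in 5 of the 6 main records, EVm020442 being the exception. Total counts shifted the median deviation of all records in replicate 3 to 0.15, and that of the vitellogenin records to -0.47.

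Replicate 3 also stood apart by record length, and this was seen beside the vitellogenin values. Among records of at least 10 CPM and under 1000 bp, it was the lowest library in 4 of 6 vitellogenin records and 17.9% of all. From 1000 to under 2000 bp it was lowest in 2 of 2 and 26.6%, from 2000 to under 5000 bp in 0 of 1 and 53.0%, and at 5000 bp or more in 4 of 5 and 79.4%. The 6 vitellogenin records under 1000 bp had a median deviation of -0.95 in replicate 3, against 0.15 for the 2111 records of that length. The 2 from 1000 to under 2000 bp, EVm020225 and EVm024402, had a median of -0.92, against 0.02. The 5 of 5000 bp or more had a median of -0.38, against -0.48 for 616 records. Low values of the long vitellogenin records in replicate 3 were thus, by the median, no larger in size than those of other long records, whereas most of the short vitellogenin records were low where the median short record was not. The exceptions were both parts of EVm022355, at -0.09 for Split01 and 0.02 for Split02. The lengths are those of the gene models. Short vitellogenin records may be parts of longer transcripts, so that their length class may not be that of their mRNA. The comparison with short records is uncertain to that extent, and the part of length in the result was not tested.

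**Figure D4:**
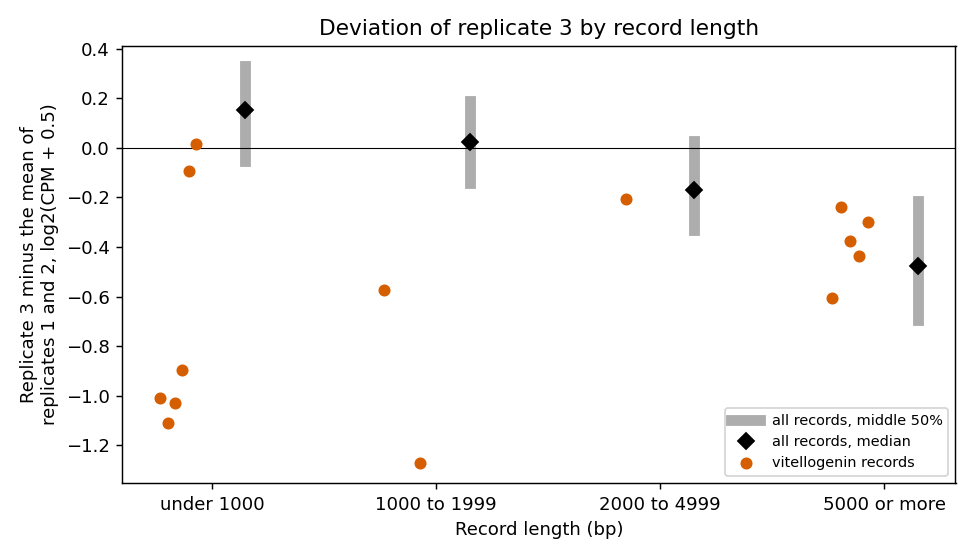
Deviation of replicate 3 from the mean of replicates 1 and 2, in log2(CPM + 0.5), by record length in bp; points are vitellogenin records of at least 10 CPM, diamonds the median and bars the middle 50% of all records of at least 10 CPM. All records fall with length, from a median of 0.15 under 1000 bp to -0.48 at 5000 bp or more, and the lowest vitellogenin points are under 2000 bp.

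The composition of the vitellogenin counts moved with the library as well. EVm020225 made up 29.3%, 28.9% and 34.5% of them in replicates 1, 2 and 3, and EVm024402 made up 24.1%, 22.5% and 17.1%. EVm002960 held 19.6%, 21.8% and 24.0%, EVm030424 13.7%, 13.2% and 11.8%, and EVm021263 6.64%, 6.27% and 5.28%. In replicate 3, therefore, EVm024402 and the records of contig22568 held less of the total and EVm020225 and EVm002960 more.

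Records that take part in yolk uptake and lipid transport were then placed beside these values. The main vitellogenin receptor record, Dapma7bEVm000342sc03376NoSplit, the endocytic receptor of the oocyte, had 201.5, 125.8 and 86.3 TPM. It was lowest in replicate 3 like the main vitellogenin records, but highest in replicate 1. Dapma7bEVm009604sc00005NoSplit, also described as a vitellogenin receptor, had 594, 505 and 414 counts, and the remaining 3 receptor records had at most 17 counts in a library. The retinoid- and fatty acid-binding glycoprotein Dapma7bEVm009632sc02850NoSplit, a lipid carrier of the circulation, had 121793, 143949 and 90958 counts and 1524, 1791 and 1044 TPM. Its library order was that of the main vitellogenin records. It and the main receptor record are longer than 5000 bp, the class in which replicate 3 was lowest in 79.4% of all records, and the part of length was not tested. The microsomal triglyceride transfer protein large subunit Dapma7bEVm000284sc03102NoSplit, which loads lipid onto such carriers, was steadier at 189, 217 and 186 TPM. An apolipoprotein D-like record, Dapma7bEVm004441sc00642NoSplit, had 971.4, 862.7 and 1054 TPM and another order, highest in replicate 3 and lowest in replicate 2. Of 55 records in the list of lipid transfer and uptake, 23 were tested and 18 of these varied beyond counting noise (54.5% of all tested records). The median of the tested ones was 54.2 CPM, against 13.9 CPM for all tested records, and high counts make the test sensitive. Replicate 3 was the lowest library in 12 of the 23, against 32.8% of all, and replicate 2 the highest in 5, against 28.9%. Both held in 4 of the 23, against 11.4% of all, and the median deviations were 0.06, 0.12 and -0.19.

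Of 9 tested superoxide dismutase records outside the vitellogenins, 0 had the order of the main vitellogenin records, against 11.4% of all tested records. With only 9 records, 0 is near that share. Replicate 3 was lowest in 1, against 32.8% of all tested records, and highest in 6, against 31.9%. Beyond counting noise varied 4 of the 9, which was near the 54.5% of all. The manganese enzyme of mitochondria, Dapma7bEVm004455sc00687NoSplit, averaged 90.4 ± 16.9 TPM, and the copper-zinc enzyme Dapma7bEVm002040sc02140NoSplit 61.3 ± 5.49 TPM (SD, n = 3 each), both far under the main fusion records.

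Among juvenoid hormone records, 4 of 7 tested ones varied beyond counting noise, near the 54.5% of all. The order of the main vitellogenin records was found in 2 of 7, against 11.4% of all tested records. With so few records, no conclusion is drawn from this count. The median deviations were 0.12, 0.26 and -0.38. Juvenile hormone epoxide hydrolase, which breaks the hormone down, had 50.5, 53.8 and 41.9 TPM in Dapma7bEVm006245sc03199Split01. This record was highest in replicate 2 and lowest in replicate 3 like the main vitellogenin records. Others of the same description took other orders. Dapma7bEVm023068sc00626NoSplit had 67, 112 and 103 counts, lowest in replicate 1. The other part of the split model, Dapma7bEVm006245sc00626Split02, had 9, 0 and 0 counts. A steroid receptor coactivator, Dapma7bEVm014968sc02891NoSplit, had 720, 581 and 177 counts, far lowest in replicate 3, and it is 1 of the long records. A second record of this description inside it on the same strand, Dapma7bEVm016745sc02891NoSplit, was nearly level at 36, 33 and 40 counts. Of ecdysteroid records, 9 of 10 varied, against 54.5% of all tested records, at a median of 28.0 CPM against 13.9 CPM. In 1 of 10 the order was that of the main vitellogenin records, near the 11.4% of all. Their median deviations were 0.42, 0.12 and -0.18. Protein ecdysoneless, Dapma7bEVm015245sc00642NoSplit, had 197, 426 and 369 counts. Ecdysone 20-monooxygenase, the enzyme that makes the active hormone, had 229, 267 and 363 counts in Dapma7bEVm010135sc00677Split02. The first was highest in replicate 2 but lowest in replicate 1, and the second was highest in replicate 3.

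Records for processing of secreted proteins were mostly lowest in replicate 1. Of 37 tested, 29 varied, against 54.5% of all tested records and 92.2% of those at 100 CPM and above. The median of the list was 90.1 CPM, against 13.9 CPM for all tested records, and high counts make the test sensitive. Replicate 1 was lowest in 22, against 37.1%, and replicate 2 highest in 20, against 28.9%, with median deviations of -0.28, 0.20 and 0.05. Calreticulin, a folding chaperone of the endoplasmic reticulum, went against this list. Its deviations in replicate 1 were 0.28 in Dapma7bEVm001525sc00944Split01 and 0.25 in Dapma7bEVm001525sc00944Split02, parts of a split model that averaged 1140 ± 116 and 1121 ± 130 TPM (SD, n = 3 each).

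Markers of tissues that a whole body holds were read against the same shares of all tested records, of which 54.5% varied beyond counting noise, and 92.2% of those at 100 CPM and above. Germline records were tested in 9 of 13 cases, 6 varied, and their summed TPM was 725.6, 477.4 and 479.1, with no counts in 2. Cyclin b, a cell cycle regulator stored in oocytes, had 4834, 2767 and 3027 counts (Dapma7bEVm001183sc00944NoSplit), and the germline helicase VASA 1939, 1716 and 1886 (Dapma7bEVm009522sc01363NoSplit). Muscle records varied in 18 of 23 tested cases, and replicate 3 was lowest in 13, against 32.8% of all. The muscle list was not matched for length, and replicate 3 was lowest in 79.4% of records of 5000 bp or more. The part of length was not tested. The sum of the muscle records was nearly level, at 2764, 2732 and 2691 TPM, with no counts in 6 of 31. The contractile proteins myosin heavy chain (Dapma7bEVm018399sc01581NoSplit) and alkali myosin light chain (Dapma7bEVm010446sc00007NoSplit) averaged 633 ± 193 and 925 ± 37.4 TPM (SD, n = 3 each). Cuticle records varied in 48 of 65 tested cases, with replicate 1 lowest in 43, against 37.1% of all. Their sum was 9049, 13905 and 13412 TPM, 171 of 353 had no counts, and the highest records, the cuticular proteins Dapma7bEVm027612sc00024Split02 and Dapma7bEVm028896sc01877Split01, averaged 1644 ± 844 and 1223 ± 144 TPM (SD, n = 3 each). Gut records varied in 71 of 106 tested cases and summed to 18245, 18538 and 19919 TPM, with 37 of 177 without counts. A trypsin, Dapma7bEVm015180sc00868NoSplit, averaged 2282 ± 80.3 TPM, and another, Dapma7bEVm015029sc00868NoSplit, 2257 ± 294 TPM (SD, n = 3 each). Haemoglobin records varied in 8 of 11 tested cases, summed to 16198, 16475 and 20297 TPM, and were at no count in 8 of 27. Dapma7bEVm020057sc01361NoSplit and Dapma7bEVm028977sc01361NoSplit led them at 9559 ± 1874 and 6188 ± 459 TPM (SD, n = 3 each). The part of these markers in the vitellogenin values was not tested.

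**Figure D5:**
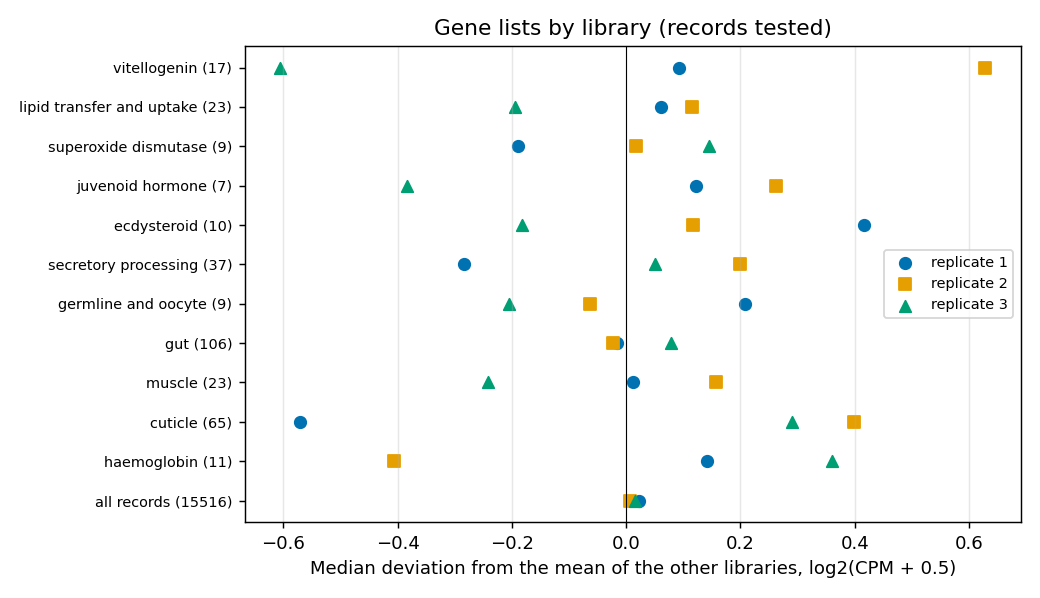
Median deviation of each library from the mean of the other libraries, in log2(CPM + 0.5), for the vitellogenin records, the pathway and marker lists and all records; the number of tested records is in brackets. The vitellogenin row spans from -0.61 in replicate 3 to 0.63 in replicate 2, and all records lie between 0.01 and 0.02.

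Finally, the records whose pattern was most like the main vitellogenin records were sought. The measure was the Euclidean distance over the 3 libraries to the median centred profile of the 6 main records (0.14, 0.46 and -0.63), among 8959 records of at least 10 CPM outside the vitellogenin records and those that overlap them. The median distance of these records was 0.84. Closest were 40S ribosomal protein SA (Dapma7bEVm020238sc01581Split01, 0.060) and the undescribed Dapma7bEVm646621sc01654NoSplit (0.066) and Dapma7bEVm629781sc00084NoSplit (0.090). A prolow-density lipoprotein receptor-related record came next (Dapma7bEVm010796sc02486NoSplit, 0.095), with 1627, 1993 and 995 counts. The other 6 of the 10 nearest were an undescribed record (Dapma7bEVm005449sc02541Split01), a serine proteinase stubble-like, the muscle protein unc-89, a phospholipid-transporting ATPase, a fat-like cadherin and muscleblind, at up to 0.109. With 3 libraries, many records lie near any profile. The search was not matched for length, and replicate 3 was lowest in 79.4% of records of 5000 bp or more. The part of length in these likenesses was not tested. Of the main records, EVm030424 had the smallest distance (0.091, with 3 other records closer) and EVm020442 the largest (0.793, with 3721 closer). The profile is the median of these same 6 records, which favours small distances for them. No conclusion is drawn from their closeness.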

How the data were processed

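Total RNA of whole bodies was enriched for poly(A) mRNA, made into randomly primed cDNA libraries and sequenced. The authors mapped reads to the wFleaBase genome in CLC Genomics Workbench 12 and deposited total counts per gene record. The genome version is not given in the sources used here, nor is the strand setting. Deposited RPKM and TPM values were scaled by the authors for length and library. A further deposited signal (scaled counts, headed CPM) was not used. Columns mapped to no sample numbered 0. Descriptions were the authors' own, and no gene model matched the RefSeq table by identifier.

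CPM values here were counts over TMM effective sizes (edgeR 4.0.16, R 4.3.3), and record lengths were recovered from counts and RPKM. Counts were tested by chi-square (2 degrees of freedom) at a mean count of at least 10. The BCV came from edgeR at 1 CPM or more. The chi-square script was tested on simulated data. Alternatives were DESeq2 1.42.0 size factors, total counts, other filters and pseudocounts, records that overlap no other, and leaving out each library. Python 3.11.15, pandas 2.3.3 and scipy 1.17.1 were used.

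All vitellogenin records were named. From each word list the 2 records of highest mean TPM were named, and so were the 10 records of most similar pattern. The vitellogenin receptors, microsomal triglyceride transfer protein and neighbours on the scaffold were chosen after their values were seen. So were further juvenoid hormone records that share a description with a named one. Members and lists were chosen with earlier results of these data known. The furin words also took phosphofurin, and the superoxide dismutase words a copper chaperone. The labels number the samples but do not say that they came from separate cultures.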

Additional observations from a re-analysis of the deposited data

How the results depend on the processing

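Without replicate 1, 2 or 3, the share of counts in vitellogenin records lay between 5.42% and 7.17%, the median deviation of replicate 2 between 0.22 and 0.80, and that of replicate 3 between -0.80 and -0.44. The median deviation of replicate 1 (0.09) changed sign with total counts (-0.0025) and lay between -0.22, without replicate 3, and 0.44. All records varying beyond counting noise numbered 2169 among records that overlap no other record, against 8454, and 4569 to 7014 with a library left out, the lowest without replicate 1. Vitellogenin records doing so then numbered 10, and 13 to 15, against 15. The overlap filter took out 7 of the 19 vitellogenin records and 74.0% of all records. Numbers tested under each setting are not given here, so these counts are not shares and show no weaker or stronger result. The common BCV (0.30) was 0.245 at a minimum of 10 CPM, and the vitellogenin median (0.301) was 0.264. Without replicate 1, 2 or 3 the common BCV was 0.223, 0.346 and 0.331, and the vitellogenin median 0.233, 0.269 and 0.260. With total counts they were 0.305 and 0.275. The vitellogenin median thus lay below the common BCV without replicate 2, without replicate 3 and with total counts. The median BCV of all fitted records is not given for these settings, so its comparison with the vitellogenin median was not repeated. The cause of the changes in counts and BCV between settings was not tested, except that fewer records were tested under the overlap filter. With records that overlap them, chosen after seeing the data, 26 records held 6.78%, 8.76% and 4.74% of counts. No paired analysis was possible because the series holds 1 group. With 3 libraries the spread itself is known poorly, and records under 10 counts were not tested.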

Other observations

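A list of nutrient signalling records had been set by words in the descriptions. Of its 55 tested records, 23 varied beyond counting noise, against 54.5% of all tested records. The median deviations of the list were 0.13, -0.09 and -0.05 in replicates 1, 2 and 3. Its words also took unrelated complexes, such as an Integrator subunit and a proteasome activator, so that its values describe no pathway.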
